A study of Mus musculus with 6 samples.

Results

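Heat shock proteins and J-domain proteins form the cell's protein folding machinery. HSP70 proteins bind unfolded stretches of protein in an ATP-driven cycle that J-domain proteins start, HSP90 proteins act later on folding clients, the HSP60 chaperonin folds proteins inside mitochondria, and small heat shock proteins hold unfolded proteins without using ATP. In brain, HSC70 (Hspa8) with J-domain partners also acts at the synapse, where Dnajc5 protects vesicle release proteins and Dnajc6 helps strip clathrin from vesicles. The genes were chosen by symbol: every gene of the deposited table whose name starts with Hspa, Hspb, Hspd, Hspe, Hsph, Hsp90, Dnaja, Dnajb or Dnajc, followed only by digits and lower-case letters. This took 74 of 51912 genes, of which 27 encode proteins named as heat shock proteins and 45 encode J-domain proteins. Hspbp1, a nucleotide exchange factor of HSP70, and Hspbap1, which binds a small heat shock protein, came in by their names only.

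RNA from mouse hippocampus was sequenced in C57BL/6 (3 libraries) and in DBA/2 (3 libraries), a pair of inbred strains. The labels give no treatment, age, sex or substrain. They do not say plainly whether a library stands for 1 animal, so the p-values here reflect only how far these libraries differ, and that spread may be technical. Total counts ran from 13839366 to 20185683 per library. Xist, a transcript of female cells, had 3214 and 6995 counts in C57BL/6 replicates 1 and 3 and at most 12 in each of the other libraries. High Xist counts were thus seen in C57BL/6 only, and the part of sex in the differences between the strains was not tested. Markers of hippocampal principal neurons, such as Hpca and Prox1, were detected for 8 of 8 genes, with summed levels of 1744 to 1962 CPM in C57BL/6 and 1772 to 2039 CPM in DBA/2. CPM are counts scaled to a library total of 1000000 after TMM scaling, which corrects library totals for composition.

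The chaperone genes as a whole were called about as often as genes at large. Of the 74 genes, 65 passed the filter on low counts and were tested, and 13 were called in edgeR (quasi-likelihood test) at a p under 0.05 after Benjamini-Hochberg (BH) adjustment, with 4 higher and 9 lower in DBA/2. This is 20.0% of the tested chaperone genes, against 22.8% of all 17517 genes tested. In DBA/2, 6.15% were higher and 13.8% lower, against 9.09% and 13.7% of all genes. For 25 of the 65 genes, or 38.5%, no C57BL/6 library fell within the DBA/2 range or the reverse, against 36.8% of all genes. The median log2 fold change of DBA/2 over C57BL/6 was 0.00 for both, and 47 of the 65 genes differed by less than 0.2 on this scale. Without regard to sign, the median log2 fold change was 0.121 for the tested chaperone genes, against 0.15 for all genes tested. Of all 17517 genes tested, 1899 (10.8%) were called with a change of at least 0.5 in either direction. Of the 65 tested chaperone genes, 4 were: Hspb8, Hspa8, Dnajc17 and Hspb6, and each of them was lower in DBA/2. The plot of log2 fold changes by class shows them.

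**Figure D1:**
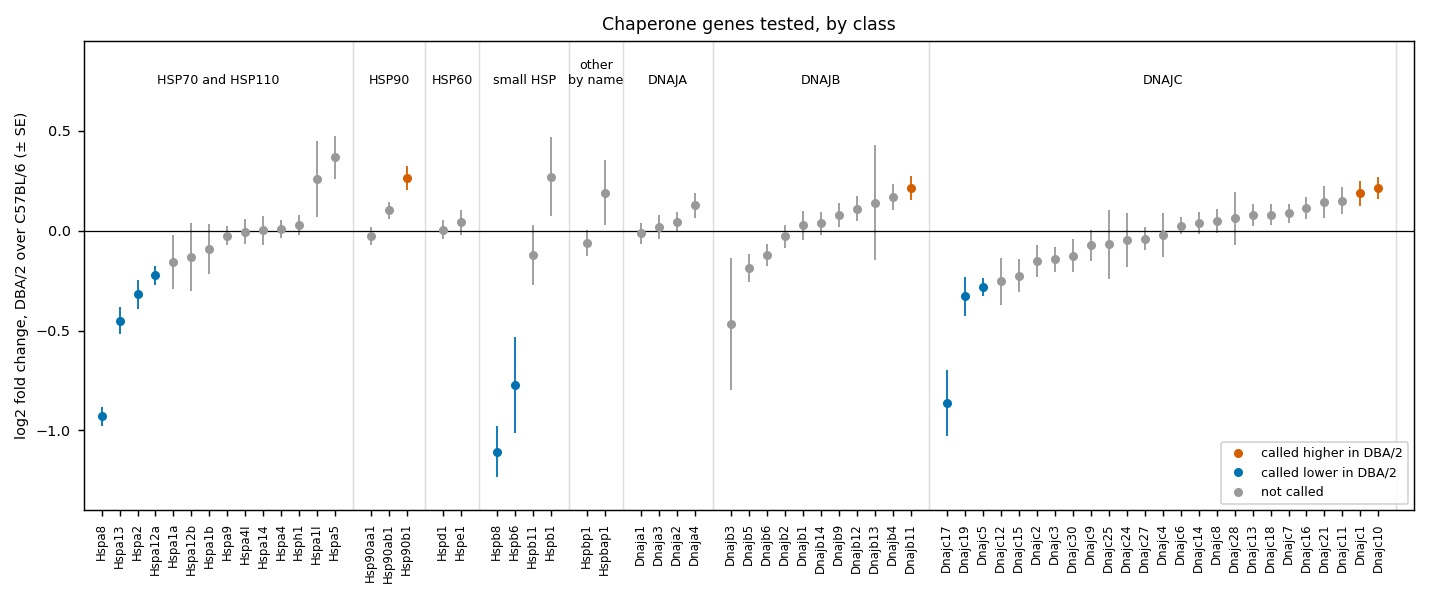
The plot gives the log2 fold change of DBA/2 over C57BL/6 with its standard error for each of the 65 tested chaperone genes, ordered within class. Orange points were called higher in DBA/2 (4 genes), blue points lower (9 genes), and grey points were not called.

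Levels per length were led by a few cytosolic chaperones. Hsp90ab1, the constitutive cytosolic HSP90, had 481 ± 3.70 FPKM in C57BL/6 and 524 ± 11.9 FPKM in DBA/2 (SD, n = 3 each). Hsp90aa1, its stress-inducible relative, had 241 ± 7.42 and 241 ± 9.19 FPKM, and Hspa8, the constitutive cytosolic HSP70, had 277 ± 11.9 and 148 ± 5.92 FPKM (SD, n = 3 each). Hspa8 stood above Hsp90aa1 in C57BL/6 and below it in DBA/2, in the means and in every library. Among J-domain genes the highest mean levels over both strains were those of Dnaja2 (65.5 FPKM), Dnajc6 (57.2 FPKM) and Dnajc5 (47.8 FPKM). The inducible HSP70 genes Hspa1a and Hspa1b were low, at mean levels of 2.73 and 4.28 FPKM. The 9 genes below the filter were Dnajb7, Dnajb8, Dnajc5b, Dnajc5g, Dnajc22, Hspb2, Hspb3, Hspb7 and Hspb9. None of these had more than 13 counts in a library, and Dnajc5g had 0 counts in all 6, which allows up to 0.149 to 0.217 CPM at these depths (3 counts of a library's total, counting error only).

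**Figure D2:**
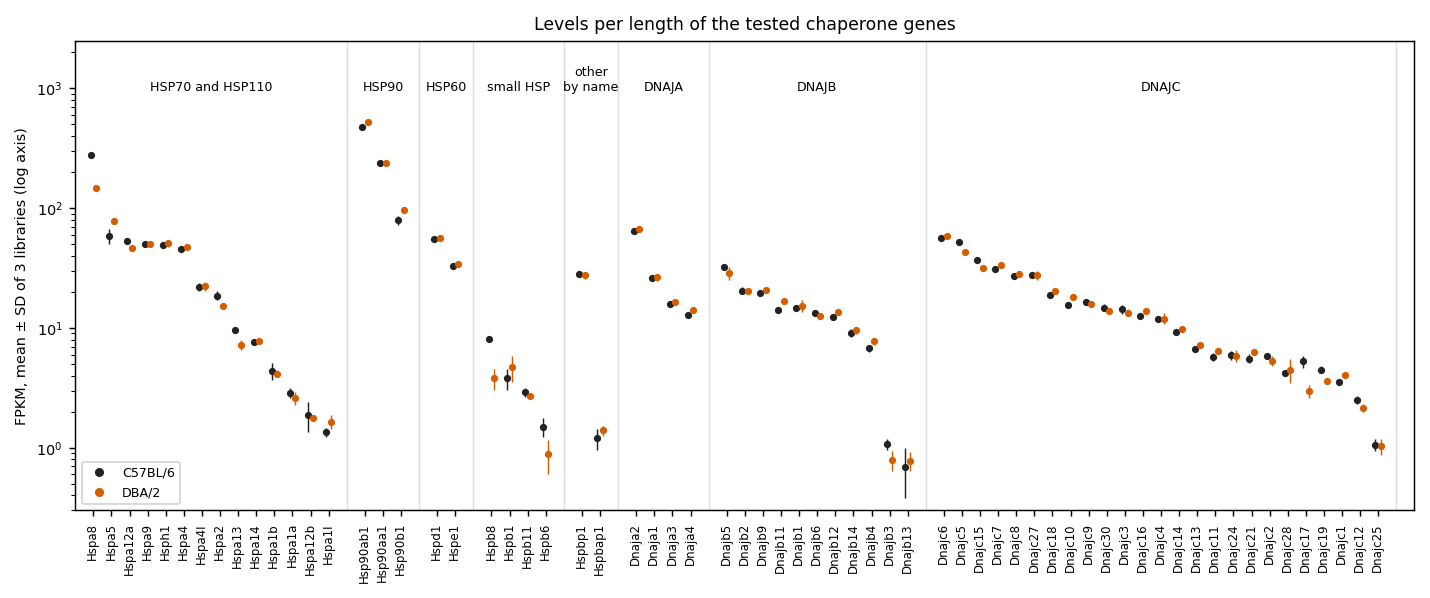
The plot gives the mean FPKM (log axis) of each tested chaperone gene in C57BL/6 (black) and DBA/2 (orange), with bars for the SD of 3 libraries. Hsp90ab1 had the highest level in both strains, and the black and orange points of Hspa8, at 277 and 148 FPKM, stand apart.

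Hspa8 fell more than any other HSP70 gene, and copies of it elsewhere in the genome rose. Hspa8 (chromosome 9, 40800984 to 40810087, GRCm38) had 1234, 1145 and 1232 CPM in the C57BL/6 libraries and 610, 625 and 663 CPM in the DBA/2 libraries. The strains did not overlap, and the fall was 1.90-fold, with a log2 fold change of -0.93 ± 0.05 (SE, BH-adjusted p = 3.39e-13 by edgeR). Hspa8 made up 39.8% to 40.0% of the summed CPM of HSP70 and HSP110 genes in C57BL/6 and 24.9% to 26.4% in DBA/2. Without Hspa8 the same genes summed to 1717 to 1867 CPM in C57BL/6 and 1734 to 1879 CPM in DBA/2, so the strains overlapped. All 74 genes summed to 8899 to 9344 CPM in C57BL/6 and 8541 to 8870 CPM in DBA/2, and without Hspa8 to 7755 to 8110 and 7931 to 8207 CPM.

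The genome holds processed copies of Hspa8, that is, reverse-transcribed mRNA inserted at other sites, and reads can be divided between gene and copy in ways that depend on single bases. Gm15459 (chromosome 5, 5781615 to 5783555) differs from the coding sequence of Hspa8 at 5 of 1941 aligned bases, and the longest stretch without a difference is 672 bases. Gm8355 on chromosome 10 differs at 25 bases and Gm6210 on chromosome 6 at 28. Bases 405 to 464 of the Hspa8 coding sequence, counted from the start codon, show how close they are. Capitals mark bases that differ from Hspa8, and sequences are from GENCODE M21 (GRCm38), 5′ to 3′ on the sense strand of Hspa8.
Hspa8: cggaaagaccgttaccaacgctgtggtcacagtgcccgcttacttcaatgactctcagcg
Gm15459: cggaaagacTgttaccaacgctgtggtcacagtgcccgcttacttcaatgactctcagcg
Gm8355: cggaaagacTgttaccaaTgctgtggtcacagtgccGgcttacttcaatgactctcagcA
Gm6210: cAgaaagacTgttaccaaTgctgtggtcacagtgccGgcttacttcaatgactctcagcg
In this window Gm15459 carries 1 difference, and Gm8355 and Gm6210 carry 4 each.

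Gm15459 had 1.81, 2.04 and 1.95 CPM in C57BL/6 and 58.4, 65.6 and 67.0 CPM in DBA/2, a 32.9-fold rise (BH-adjusted p = 1.39e-20 by edgeR). Gm26825, annotated on the opposite strand over the same stretch of chromosome 5 (5781530 to 5783636), had 0.583 to 0.662 CPM in C57BL/6 and 32.1 to 39.9 CPM in DBA/2. Gm8355 rose 1.78-fold, from 5.97 ± 0.518 to 10.6 ± 1.65 CPM (SD, n = 3 each). All copies together held 0.692% to 0.750% of the summed counts of the family in C57BL/6 and 14.3% to 15.4% in DBA/2. Their gain of 101.7 CPM was 17.8% of the Hspa8 fall of 571 CPM. With gene and copies summed, the family had 1243, 1153 and 1240 CPM in C57BL/6 and 712, 738 and 779 CPM in DBA/2, a log2 fold change of -0.71 ± 0.05 (SE, BH-adjusted p = 4.44e-11 by edgeR). Because of these copies the level of Hspa8 is uncertain. Reads that fit several sites may be missing from these counts, and their part in the fall was not tested.

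**Figure D3:**
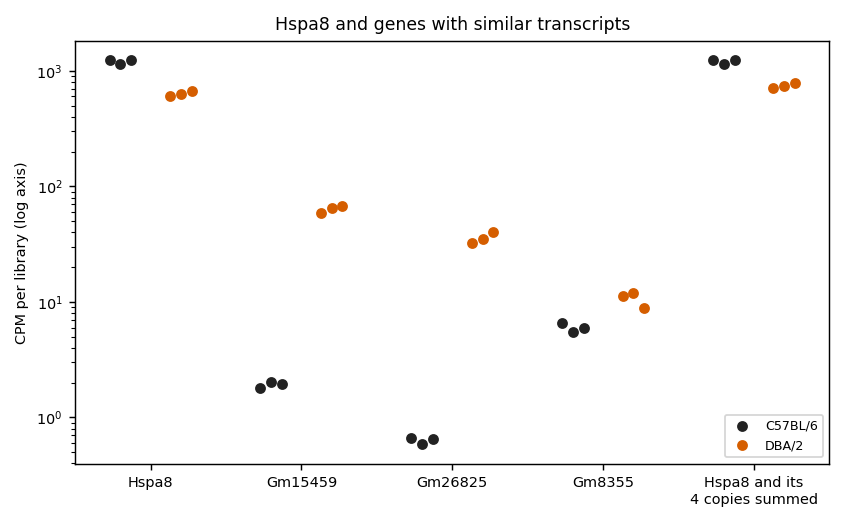
The plot gives the CPM (log axis) of each of the 3 C57BL/6 libraries (black) and 3 DBA/2 libraries (orange) for Hspa8, for 3 genes with similar transcripts and for Hspa8 summed with all 4 copies. Hspa8 and the sum are lower in every DBA/2 library, and Gm15459, Gm26825 and Gm8355 are higher in every DBA/2 library.

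Of the other HSP70 and HSP110 genes, 3 fell and none rose, which with Hspa8 makes 4 of 14 lower (28.6%), against 13.7% lower and 9.09% higher of all genes tested. Hspa13, a microsomal HSP70-like ATPase (chromosome 16, 75745431 to 75767104), had 59.2, 57.7 and 55.6 CPM in C57BL/6 and 38.4, 46.2 and 41.5 CPM in DBA/2. The highest DBA/2 library lay below the lowest C57BL/6 library, and the log2 fold change was -0.45 ± 0.07 (SE, BH-adjusted p = 1.94e-05 by edgeR). Hspa2, an HSP70 that male germ cells need and that is also made in brain (chromosome 12, 76404176 to 76406938), had 53.1, 51.8 and 44.5 CPM in C57BL/6 and 41.9, 37.9 and 39.8 CPM in DBA/2, a 1.25-fold fall without overlap (adjusted p = 0.00191 in the same edgeR test). Hspa12a, a distant HSP70 relative abundant in neurons (chromosome 19, 58795750 to 58943654), had 309 to 314 CPM in C57BL/6 and 251 to 277 CPM in DBA/2. Its fall was 1.17-fold (adjusted p = 0.000908 in the same test), small but wider than the spread within either strain.

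Hspa5 (BiP), the HSP70 of the endoplasmic reticulum, was the HSP70 gene with the highest log2 fold change, and it was not called. It had 285, 214 and 260 CPM in C57BL/6 and 307, 343 and 328 CPM in DBA/2 (chromosome 2, 34771970 to 34777547). The strains did not overlap, but C57BL/6 replicate 2 stood well below the other libraries of its strain. The log2 fold change was 0.37 ± 0.11 (SE, BH-adjusted p = 0.061 by edgeR). The adjusted p was 0.000555 without C57BL/6 replicate 1, 0.00232 without C57BL/6 replicate 2 and 0.228 without DBA/2 replicate 2, so the call changed with single libraries. The call also turned on the test, filter and scaling: Hspa5 was called under 8 of 14 alternatives, among them DESeq2 (adjusted p = 0.022), testing all genes unfiltered (9.38e-08), testing only genes that average 5 CPM or more (0.0493) and scaling by library size alone (0.0485).

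The HSP70 genes that heat induces did not differ beyond their spread. Hspa1a and Hspa1b lie beside Hspa1l on chromosome 17, and their coding sequences differ at 8 of 1926 aligned bases, so reads can be divided between them and each level is uncertain. Hspa1a had 8.91, 7.65 and 9.13 CPM in C57BL/6 and 8.04, 8.42 and 6.56 CPM in DBA/2. Hspa1b had 14.6, 12 and 10.6 CPM against 10.9, 12.3 and 11.6 CPM, and the libraries of the strains overlapped for both genes. Summed, they had a log2 fold change of -0.12 ± 0.09 (SE, BH-adjusted p = 0.414 by edgeR). Hspa1l, a testis HSP70, had 3.39 ± 0.288 and 4.05 ± 0.548 CPM (SD, n = 3 each), and 71.9% of its exonic bases lie under an annotated antisense gene. Strand use in counting is not given in the sources used here, so its level is uncertain.

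The remaining HSP70-type genes were close to equal. Log2 fold changes were 0.01 ± 0.05 for Hspa4, -0.01 ± 0.06 for Hspa4l and 0.03 ± 0.05 for Hsph1 (SE), which are exchange factors of the HSP110 type. They were -0.03 ± 0.05 for Hspa9, the HSP70 of mitochondria, and 0.00 ± 0.07 for Hspa14, which works at the ribosome (SE). Hspa12b, a relative made in endothelial cells, had 5.72, 5.98 and 9.18 CPM in C57BL/6 and 6.22, 6.42 and 6.70 CPM in DBA/2. Replicate 3 of C57BL/6 was the high library for this gene.

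Of the HSP90 genes, the one of the endoplasmic reticulum rose. Hsp90b1 (GRP94, chromosome 10, 86690209 to 86705509) had 341, 291 and 337 CPM in C57BL/6 and 376, 415 and 374 CPM in DBA/2. Every DBA/2 library was above every C57BL/6 library, with a 1.20-fold rise (log2 fold change 0.26 ± 0.06, SE, BH-adjusted p = 0.00264 by edgeR). An annotated gene on the opposite strand covers 10.3% of the Hsp90b1 exonic bases, so its level is uncertain to that extent. Hsp90ab1 had 1470, 1445 and 1453 CPM in C57BL/6 and 1567, 1518 and 1599 CPM in DBA/2. These libraries did not overlap either, but the log2 fold change was 0.10 ± 0.04 and was not called (SE, BH-adjusted p = 0.104 by edgeR). It was called with DESeq2 (adjusted p = 0.0492), with limma-voom (adjusted p = 0.0435), with scaling by library size alone and without DBA/2 replicate 2. Hsp90aa1 had 956 ± 29.3 and 939 ± 35.9 CPM (SD, n = 3 each), and its libraries overlapped.

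The HSP60 chaperonin and its lid were level between the strains. Hspd1, the chaperonin, had 151, 141 and 150 CPM in C57BL/6 and 145, 150 and 149 CPM in DBA/2. Hspe1, the lid, had 50.3, 49.1 and 46.6 CPM and 52.4, 48.6 and 48.8 CPM. Log2 fold changes were 0.00 ± 0.05 for Hspd1 and 0.04 ± 0.06 for Hspe1 (SE), and neither was called in edgeR, DESeq2 or limma-voom, with 0 at an unadjusted p under 0.05 in edgeR. The genes stand head to head on chromosome 1, and the sequence between them holds heat shock elements, the sites to which heat shock factor trimers bind. In the windows below, from RefSeq (GRCm38.p6), capitals mark matches to GAA, TTC and GAA with any 2 bases between neighbours, or to the reverse complement TTC, GAA and TTC, with overlapping matches joined. The same 18 bases, chr1:55088059-55088076, appear in both, read on opposite strands.
Hspd1 promoter (chr1:55088044-55088113, minus strand): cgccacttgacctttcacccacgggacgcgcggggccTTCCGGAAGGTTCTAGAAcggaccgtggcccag
Hspe1 promoter (chr1:55088022-55088091, plus strand): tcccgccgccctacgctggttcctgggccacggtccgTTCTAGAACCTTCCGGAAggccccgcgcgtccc
Over both strands of 300 bases around each start (250 before, 50 after), 0.603% of 32851 RefSeq promoters held this motif, against 6 of 77 promoters of the chaperone genes (7.79%). Promoters were at hand for 60 of the 74 genes, and the matches belonged to Hspd1, Hspe1, Hsph1 and Dnajb6, none of which was called. Counted by gene this is 4 of 60 (6.67%), against 0.662% of 27025 genes. The matches are not all separate sites, since Hspd1 and Hspe1 share theirs and the matching Dnajb6 promoters hold the same bases. A match describes letters in the window and does not show a bound factor.

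Small heat shock proteins held the largest fall of all the chaperone genes. Hspb8 (HSP22), which works with the co-chaperone BAG3 in disposing of misfolded proteins (chromosome 5, 116408491 to 116422864), had 16.3, 15.7 and 16.1 CPM in C57BL/6. In DBA/2 it had 8.63, 7.77 and 5.76 CPM. The C57BL/6 libraries were tightly grouped, the DBA/2 libraries more widely, and they did not overlap. The fall was 2.15-fold, with a log2 fold change of -1.11 ± 0.13 (SE, BH-adjusted p = 3.52e-07 by edgeR). Hspb6 (HSP20), a small heat shock protein known from muscle, had 2.83, 3.50 and 4.04 CPM in C57BL/6 and 2.52, 2.18 and 1.30 CPM in DBA/2 (adjusted p = 0.0219 in the same test). The strains did not overlap by a narrow margin, and the call was lost without C57BL/6 replicate 3 (adjusted p = 0.127) and without DBA/2 replicate 3 (adjusted p = 0.11). Proser3, which shares 122 exonic bases with Hspb6 on the opposite strand, had 56 to 94 counts in C57BL/6 and 37 to 45 in DBA/2. Hspb1 (HSP27) had 3.73, 3.28 and 4.84 CPM and 4.05, 6.12 and 4.25 CPM, which overlapped. Hspb11, an intraflagellar transport subunit in spite of its name, had 6.08 ± 0.525 and 5.58 ± 0.0952 CPM (SD, n = 3 each). Cryab, a small heat shock protein outside the name rule, had 75.8 ± 8.91 and 73.0 ± 6.59 CPM (SD, n = 3 each).

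Of 4 DNAJA, 11 DNAJB and 25 DNAJC genes tested, 3 rose and 3 fell, or 15% called against 22.8% of all genes tested. The 4 DNAJA genes, general partners of HSP70, had no call in edgeR, DESeq2 or limma-voom and 0 at an unadjusted p under 0.05 in edgeR, and so few genes say little beside that share. Dnaja1 had 229 ± 8.79 and 226 ± 14.4 CPM, Dnaja2 192 ± 8.26 and 198 ± 6.55 CPM, and Dnaja3, the mitochondrial one, 63.1 ± 4.03 and 63.8 ± 2.17 CPM (SD, n = 3 each). Dnajb1 (HSP40), the heat-inducible partner of HSP70, had 49.5, 46.0 and 48.4 CPM in C57BL/6 and 44.0, 48.1 and 55.1 CPM in DBA/2, and the strains overlapped. Dnajb5, the DNAJB gene with the highest mean FPKM, had 187, 194 and 195 CPM and 167, 150 and 190 CPM, and was not called (BH-adjusted p = 0.0702 by edgeR). DBA/2 replicate 3 lay within the C57BL/6 range, and without it Dnajb5 was called lower in DBA/2 (adjusted p = 0.000898). Dnajb2, a neuronal J-domain protein that guides clients to degradation, had 87.7 ± 5.87 and 86.05 ± 3.35 CPM (SD over 3 libraries per strain) and was not called. All J-domain genes summed to 3098 to 3175 CPM in C57BL/6 and 3077 to 3154 CPM in DBA/2, which overlapped.

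Dnajc5 and the other synaptic J-domain genes differed from each other. Dnajc5, the cysteine string protein of synaptic vesicles (chromosome 2, 181520485 to 181555133), had 363, 359 and 374 CPM in C57BL/6 and 290, 311 and 300 CPM in DBA/2. It fell 1.22-fold without overlap, with a log2 fold change of -0.28 ± 0.05 (SE, BH-adjusted p = 3.65e-05 by edgeR). Dnajc6, auxilin, which uncoats clathrin vesicles, had 343, 328 and 337 CPM and 336, 352 and 337 CPM, and Dnajc13, an endosomal J-domain protein, had 81.2 ± 3.65 and 85.8 ± 2.04 CPM (SD, n = 3 each). Their log2 fold changes were 0.03 ± 0.04 and 0.08 ± 0.06 (SE), and neither was called. The summed levels of 10 neuronal markers overlapped between the strains, at 7372 to 7676 CPM in C57BL/6 and 7437 to 7735 CPM in DBA/2. Of these markers 2 were called lower and 0 higher (20.0% called, against 22.8% of all genes tested). The 2 were Tubb3 (log2 fold change -0.32 ± 0.05, SE) and Nefm (-0.15 ± 0.05, SE). The part of neuronal content in the fall of Dnajc5 was not tested.

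The other J-domain genes that fell act in mitochondria and the nucleus. Dnajc19, part of the motor that pulls proteins into mitochondria (chromosome 3, 34056020 to 34081321), had 19.3, 18.8 and 16.9 CPM in C57BL/6 and 14.7, 13.7 and 15.2 CPM in DBA/2 (log2 fold change -0.33 ± 0.10, SE, BH-adjusted p = 0.0148 by edgeR). The call was lost without C57BL/6 replicate 1 (adjusted p = 0.0782), without C57BL/6 replicate 2 (0.0538) and without DBA/2 replicate 2 (0.0641). Dnajc15, its relative in the same motor, had 23.2 to 24.6 CPM and 19.3 to 21.5 CPM and just missed the threshold (adjusted p = 0.0503 in the same test). Of the 6 mitochondrial J-domain genes, Dnajc19 was the 1 called (16.7%, against 22.8% of all genes tested), and the summed levels overlapped at 199 to 215 CPM and 203 to 212 CPM. Dnajc17, a nuclear J-domain protein with an RNA recognition motif (chromosome 2, 119172500 to 119208795), had 7.04, 6.12 and 7.73 CPM and 3.99, 3.30 and 4.32 CPM. Its log2 fold change was -0.86 ± 0.16 (SE, BH-adjusted p = 0.000341 by edgeR). Its processed copy Gm6257 on chromosome 9 had 6, 0 and 2 counts in C57BL/6 and 31, 24 and 18 counts in DBA/2. With both summed the log2 fold change was -0.42 ± 0.15 (SE) and no longer called (adjusted p = 0.0543), so the level of Dnajc17 is uncertain.

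All 3 J-domain genes that rose encode proteins of the endoplasmic reticulum. Dnajb11 (ERdj3), a soluble partner of BiP (chromosome 16, 22857845 to 22879634), had 48.3, 44.0 and 46.7 CPM in C57BL/6 and 53.7, 52.4 and 55.3 CPM in DBA/2. Dnajc10 (ERdj5), a disulfide reductase (chromosome 2, 80315466 to 80354043), had 77.6, 79.2 and 77.7 CPM and 92.8, 94.2 and 84.9 CPM. Dnajc1 (ERdj1), which sits in the membrane beside ribosomes (chromosome 2, 18195654 to 18392830), had 41.9, 41.5 and 41.1 CPM and 47.0, 46.5 and 48.3 CPM. The strains did not overlap for any of the 3, and the rises were small, at 1.16-fold, 1.16-fold and 1.14-fold (adjusted p = 0.0126, 0.0058 and 0.0294 by edgeR, BH-adjusted). Dnajb11 was not called without C57BL/6 replicate 2 (adjusted p = 0.0726). Dnajc1 lost its call without any 1 of 5 of the 6 libraries (adjusted p up to 0.109), DBA/2 replicate 2 being the exception, and with DESeq2 (adjusted p = 0.0736). Mllt10 on the opposite strand shares 749 exonic bases with Dnajc1 (6.43%), so the level of Dnajc1 is uncertain to that extent. Mllt10 had 797, 698 and 905 counts in C57BL/6 and 973, 950 and 760 counts in DBA/2.

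Of the 9 J-domain genes listed for this compartment, 3 rose and none fell (33.3% called), against 9.09% higher and 13.7% lower of all genes tested. A positive log2 fold change was found for 8 of the 9, against 8872 of all 17517, and the median was 0.11 against 0.00. They summed to 645 to 675 CPM in C57BL/6 and 691 to 716 CPM in DBA/2. Dnajb9 (ERdj4) had 50.2 ± 1.80 and 53.0 ± 1.30 CPM, and Dnajc3, a BiP partner that also inhibits a stress kinase, had 75.3 ± 6.28 and 68.3 ± 1.96 CPM (SD, n = 3 each). Dnajc3 was the 1 listed gene with a negative value, a log2 fold change of -0.14 ± 0.06 (SE), and was not called. Without C57BL/6 replicate 2, Dnajb11 and Dnajc1 lost their calls and Dnajc3 gained one, so these counts turned on that library.

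**Figure D4:**
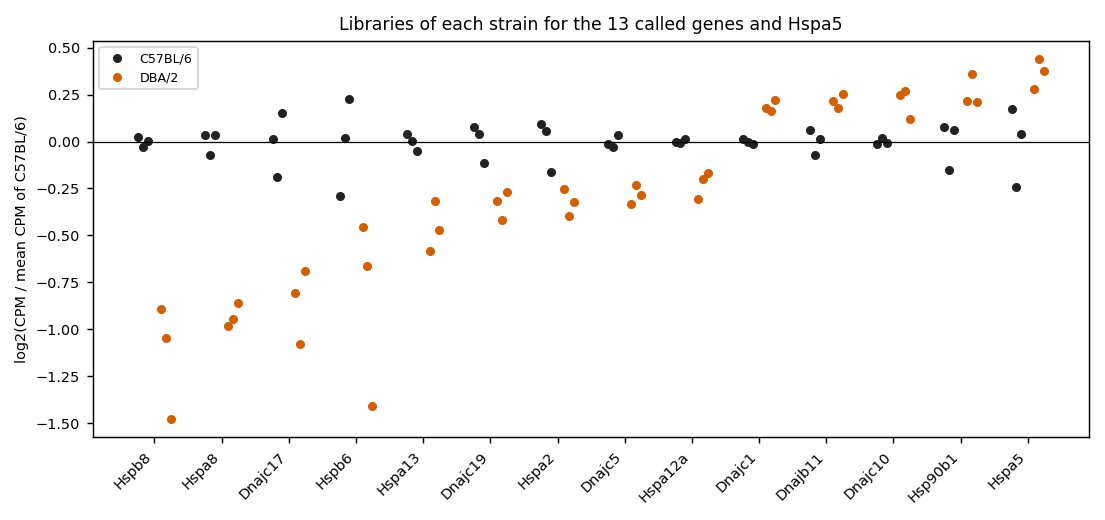
The plot gives, for each of the 13 called genes and for Hspa5, the log2 ratio of each library's CPM to the C57BL/6 mean, with C57BL/6 in black and DBA/2 in orange. No gene shown has overlapping strains, and C57BL/6 replicate 2 is the lowest library for Dnajb11, Hsp90b1 and Hspa5.

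A wider list of 28 genes of the endoplasmic reticulum stress response, which holds 7 of the chaperone genes, had 10 genes higher and 3 lower in DBA/2. This is 46.4% called, against 22.8% of all genes tested, and the median log2 fold change was 0.14 against 0.00. Pdia3, a disulfide isomerase, had 217, 188 and 212 CPM in C57BL/6 and 269, 269 and 271 CPM in DBA/2. Sdf2l1, which works with Dnajb11 on BiP, had 7.82 ± 0.577 and 11.2 ± 0.813 CPM (SD, n = 3 each), the largest rise of the list with a log2 fold change of 0.52 ± 0.12 (SE). Members of the same list also fell: Hspa13, given above, Edem1, which passes misfolded proteins on for degradation, from 26.0 ± 2.00 to 18.1 ± 0.979 CPM, and Atf4, a stress transcription factor, from 95.5 ± 2.49 to 82.4 ± 6.93 CPM (SD, n = 3 each).

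The list's summed level was 2931, 2618 and 2889 CPM in C57BL/6 and 3090, 3218 and 3133 CPM in DBA/2. C57BL/6 replicate 2 was the lowest of the 6 libraries for 9 of the 10 genes that rose. Without that library 6 genes were higher and 4 lower, and the median log2 fold change was 0.107. Of all genes tested, 7.61% were then higher, against 9.09% with all 6 libraries. The share of all genes called lower also fell, from 13.7%. Leaving out C57BL/6 replicates 1 and 3, which held the Xist counts, left replicate 2 alone in its strain. The list's median log2 fold change was then 0.217, and calls from that fit are not compared here. What sets replicate 2 apart in these genes was not tested.

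**Figure D5:**
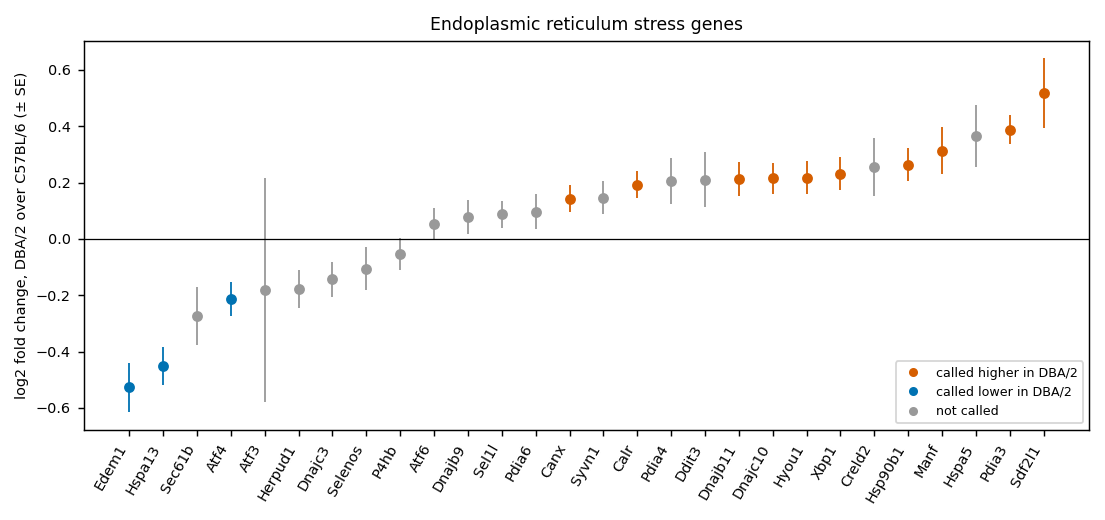
The plot gives the log2 fold change of DBA/2 over C57BL/6 with its standard error for 28 endoplasmic reticulum stress genes, ordered by value. The 10 orange points were called higher and the 3 blue points (Edem1, Hspa13 and Atf4) lower in DBA/2, and Hspa5, in grey, lies among the highest values without a call.

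The endoplasmic reticulum stress element, CCAAT and CCACG with any 9 bases between them on either strand, was found in 0.119% of the 32851 promoters and in 3 of 77 promoters of the chaperone genes (3.9%). They belong to Hspa5, Hsp90b1 and Dnajc3, and are shown because Hsp90b1 was called higher in DBA/2, Hspa5 was higher in every DBA/2 library without a call, and Dnajc3 had a negative log2 fold change. Capitals mark the matches (RefSeq, GRCm38.p6, each on its gene's strand).
Hspa5 promoter (chr2:34771989-34772058, plus strand): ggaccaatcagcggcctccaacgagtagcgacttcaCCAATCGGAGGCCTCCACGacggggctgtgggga
Hsp90b1 promoter (chr10:86705518-86705671, minus strand): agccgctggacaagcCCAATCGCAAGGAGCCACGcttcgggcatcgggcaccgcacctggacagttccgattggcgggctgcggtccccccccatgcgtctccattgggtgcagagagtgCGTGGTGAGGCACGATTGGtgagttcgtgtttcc
Dnajc3 promoter (chr14:118937791-118937860, plus strand): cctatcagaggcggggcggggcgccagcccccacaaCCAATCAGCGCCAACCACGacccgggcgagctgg
These are letter matches in the reference sequence, and the DBA/2 sequence was not used here.

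Genes that act with the chaperones were described by 4 further lists, read against the 22.8% of all genes tested that were called. None of the 4 tested genes of the heat shock factor list (Hsf1, Hsf2, Hsf4 and Hsbp1) was called in edgeR, DESeq2 or limma-voom. Of these 1, Hsf1, had an unadjusted p under 0.05 in edgeR. Hsf1, the main factor of the heat shock response, had 45.7, 45.6 and 45.8 CPM in C57BL/6 and 51.1, 48.2 and 55.9 CPM in DBA/2, which did not overlap and just missed the threshold (BH-adjusted p = 0.0502 by edgeR). Hsf2 had 39.2 ± 1.21 and 39.4 ± 0.418 CPM, Hsf4 12.2 ± 0.544 and 13.04 ± 0.888 CPM, and Hsbp1, a binding protein of these factors, 152 ± 4.06 and 153 ± 7.18 CPM (SD, n = 3 each).

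Of 34 co-chaperones of HSP70 and HSP90, 2 rose and 2 fell, or 11.8% called, against 22.8% of all genes tested (9.09% higher and 13.7% lower). Bag5, an exchange factor of HSP70, had 34.1, 36.8 and 34.7 CPM in C57BL/6 and 25.9, 23.6 and 25.2 CPM in DBA/2, a log2 fold change of -0.50 ± 0.07 (SE, BH-adjusted p = 1.59e-05 by edgeR). Hyou1, the HSP110 of the endoplasmic reticulum, rose from 105 ± 8.77 to 122 ± 6.84 CPM, and Unc45a, a chaperone of myosin, fell from 39.2 ± 2.32 to 33.3 ± 1.27 CPM (SD over 3 libraries per strain). Of 14 subunits of the cytosolic chaperonin and of prefoldin, which hands proteins to it, 1 rose and 2 fell, or 21.4% called, which is close to the 22.8% of all genes tested. The prefoldin subunit Pfdn2 fell from 58.4 ± 3.26 to 40.7 ± 2.45 CPM and Pfdn6 from 27.1 ± 1.07 to 22.3 ± 1.67 CPM, while the chaperonin subunit Cct2 rose from 126 ± 1.92 to 139 ± 1.88 CPM (SD over 3 libraries per strain). Of 7 tested genes of other small heat shock proteins and of disaggregation and proteolysis, which include Cryab, 0 were called in edgeR, DESeq2 or limma-voom, and 1 had an unadjusted p under 0.05 in edgeR. It was Serpinh1, a collagen chaperone, named after its value was seen.

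Marker genes of several cell types were read beside these results. Of all genes tested, 22.8% were called, 9.09% higher and 13.7% lower in DBA/2. The shares called of oligodendrocyte markers (25.0%) and vessel markers (20.0%) were near that of all genes. In whole tissue, fewer cells of a type and less RNA per cell cannot be told apart. Oligodendrocyte markers (3 of 12 called, all lower) summed to 7068 to 8835 CPM in C57BL/6 and 4758 to 6421 CPM in DBA/2. Astrocyte markers (5 of 10 lower, 1 higher) summed to 2000 to 2139 and 1709 to 1810 CPM, and microglia markers (7 of 10 lower) to 395 to 427 and 295 to 321 CPM. Thalamus and habenula markers (6 of 12 lower) summed to 501 to 721 and 260 to 346 CPM, and immediate early genes, which neuronal activity induces, (8 of 16 lower) to 1022 to 1119 and 710 to 904 CPM. Cilia and ependyma markers (4 of 12 lower) summed to 75.7 to 92.9 and 46.1 to 70.5 CPM. Choroid plexus markers (0 of 10 called in edgeR or limma-voom, with 0 at an unadjusted p under 0.05 in edgeR, and 1 called in DESeq2) summed to 683 to 1530 and 1255 to 2765 CPM, and vessel markers (2 of 15 higher, 1 lower) to 281 to 373 and 344 to 408 CPM. No marker was at 0 counts in all 6 libraries, and the part of these cell types in the changes of Hspb8, Hspb6, Hspa2 or any other chaperone gene was not tested.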

How the data were processed

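RNA from the hippocampus of 6 mouse samples, 3 per strain, was prepared with TRIzol and an NEBNext Ultra kit and run on an Illumina HiSeq, per the labels' protocols. The submitters' processing notes name GRCm38 and the tools Cufflinks 2.2.1, HISAT2 2.0.1 and Trimmomatic 0.30. For the counting program, annotation and strand setting, nothing is given in the sources used here. For each gene the authors deposited a whole-number count and an FPKM value. The deposited FPKM equalled the count divided by the listed exonic length in kilobases and by the library total in units of 1000000, within 0.005. A further 12 columns of per-sample values match no labelled sample and were not used. No row lacked a gene name.

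Strain came from the labels. Counts were tested in R 4.3.3 with edgeR 4.0.16 (quasi-likelihood F test, robust fit, TMM factors, filterByExpr by strain, no covariates), with Benjamini-Hochberg adjustment over 17517 genes and a threshold of 0.05. Simulated counts for this comparison (17285 genes, 100 changed 1.5-fold, 100 changed 2-fold) gave 67% and 80% recovery, and 10.9% of 165 calls were false. The standard error is the log2 fold change over the square root of F. Alternatives used DESeq2 1.42.0 and limma 3.58.1, other scalings and filters, a replicate block, left-out libraries and counts summed with copies. Copies are genes whose longest GENCODE M21 transcripts (same build, all 74 genes matched) share at least 200 bases at 95% identity over 0.5 of the shorter transcript (BLAST 2.17.0, then MAFFT 7.526). The Hspa8 sum may count reads of overlapping copies more than once. Copies were also found for Dnaja1, Dnajb14, Dnajb6, Dnajc19, Hsp90aa1 and Hspd1, whose levels are uncertain to that extent.

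The genes, lists and markers were chosen with earlier results of these data known; the hippocampal markers were added after the files were seen. Named are all called chaperone genes, all tested heat shock protein genes, the 3 highest J-domain genes per class by FPKM, heat shock factors, and up to 3 called genes of each other list by lowest adjusted p. Atf4, and J-domain genes beyond this rule, were named after their values were seen. The result of 1 further gene list is not reported here.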

Additional observations from a re-analysis of the deposited data

How the results depend on the processing

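Each of the 13 called genes kept its direction under every alternative that gave a value. This is a weak check, because each of these genes had separate CPM ranges in C57BL/6 and DBA/2. Leaving out libraries could therefore hardly reverse a direction, and the other scalings, filters and tests used the same 6 libraries. The calls, unlike the directions, could change. Percentages in brackets are the share of all genes called under the same setting. Of 65 chaperone genes tested, 13 were called with DESeq2 size factors (22.9%) and 13 with the DESeq2 test (18.6%). Limma-voom called 14 of 65 (22.8%), testing without a filter 14 of 73 (14.2%), and a mean of at least 5 CPM 14 of 59 (24.9%). Counts summed over similar genes called 12 of 65 (22.8%), where Dnajc17 was lost. Scaling by library size alone called 16 of 65 (23.7%), with 7 higher in DBA/2. That scaling moved the median log2 fold change of all genes from 0.00 to 0.03. Leaving out 1 library in turn called 11 to 14 genes, 3 to 6 higher and 8 or 9 lower (17.5% to 20.9%). Without C57BL/6 replicates 1 and 3, which leaves 1 C57BL/6 library assumed to vary like the DBA/2 ones, 7 were called, 2 higher and 5 lower, against 3.79% and 7.25% of all genes. Hspa8, Hspb8, Hspa13, Hspa2, Dnajc5 and Hsp90b1 kept their call there, and Hspa5 gained one (log2 fold change 0.61). With the replicate block 14 genes were called (21.8% of all genes), losing Dnajc1 and gaining Dnajb5 and Hspa5. Same-numbered libraries did not deviate together (correlations of 0.132, -0.079 and 0.003), so the numbers were not treated as pairs. Among 39 named genes, 23 of 582 alternative values lost a call and 16 gained one. None reversed a called direction, which the separate ranges made unlikely from the start. Depth limits the 9 untested genes, each under 1 CPM in every library.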
